A study of Mus musculus with 20 samples.

Results

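The genes described here carry transforming growth factor beta (TGF-beta) and activin signals, and they were followed in the hearts of young mice, old mice and old mice fed vitamin E. The set holds 9 genes: the ligands Tgfb1, Tgfb2 and Tgfb3, the receptors Tgfbr1, Tgfbr2 and Acvr1b, and the intracellular Smad3, Smad4 and Smad7. A probe set (a group of short probes that together read 1 transcript) was taken when its single gene symbol in the platform annotation was 1 of these names, whatever its values. This gave all 9 genes, of 8251 with such a symbol, and 10 probe sets of the 12488 on the array, Tgfb3 having 2 of them. The probe sets for Acvr1b, Smad4 and Smad7 and the brighter one for Tgfb3 (102751_at) were bright enough to be tested. The other 6 lay below the brightness limit, the mean log2 level of 8.716 under which the dimmest 40% of probe sets fall, and were left out of the main tests. Where p-values are given for them, the limit was not applied.

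Each of 20 male mice gave 1 heart sample and 1 oligonucleotide array, in 4 groups of 5. The animals were B6C3F1, the first-generation cross of the C57BL/6 and C3H strains, except that old controls 1 and 4 are labelled as hybrids of that cross without the F1 mark. Young controls were 5 months and old controls 30 months of age, both on the control diet. A further group aged 30 months had received 1000 mg/kg alpha-tocopherol in the diet since 15 months of age, and the last group, of the same age, had received 500 mg/kg each of alpha- and gamma-tocopherol since 15 months. Both compounds are forms of vitamin E, alpha-tocopherol carrying a ring methyl group that gamma-tocopherol lacks. The lower alpha-tocopherol dose and the added gamma-tocopherol cannot be told apart in the last group. The design asks what ageing changes in the heart and what either supplement changes in old animals. The 2 supplement comparisons share the old controls.

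TGF-beta is secreted in a latent form bound to the matrix and, once released, binds the type II receptor Tgfbr2, which activates the type I receptor Tgfbr1. Activins signal through other type II receptors and the type I receptor Acvr1b. Type I receptors phosphorylate Smad2 and Smad3, which join Smad4 to reach the nucleus and regulate transcription, while Smad7 is induced by the pathway and blocks the receptors. In the heart the pathway is best known for driving fibroblasts to make collagen and other matrix after injury and in fibrosis.

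The samples were heart by their leading transcripts. The cardiomyocyte genes Myh6, Tnnt2, Tnni3, Actc1 and Myl2 each lay at or above the 99.86th percentile of mean level. Array medians lay within 0.115 of each other on the log2 scale. The alpha-tocopherol arrays stood apart in control features: the bacterial hybridization controls, which are added to the labelled material, were higher than in old controls by 0.85 (log2; exact two-sided permutation p = 0.00794, adjusted p = 0.0159 over 8 such tests), and 18S ribosomal RNA was higher by 1.66 with the same p-values. With 5 arrays against 5, no smaller p than 0.0079 is possible. Both measures were also above those of the group fed both tocopherols, by 0.57 and 1.14 (same p-values), and did not differ detectably between the other groups compared. In old control 3 the Gapdh signal at the 3' end of the transcript was 1.21 (log2) above that at the 5' end, a sign of RNA quality, whereas the other arrays lay near 0.

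The main results concerned Acvr1b and Smad4. Acvr1b was higher in old mice fed alpha-tocopherol than in old controls by 1.83 ± 0.47 on the log2 scale (SE, 5 against 5 animals), and higher by 1.60 ± 0.47 in those fed both tocopherols. Smad4 was lower by 1.01 ± 0.16 (log2) with alpha-tocopherol. Neither alpha-tocopherol call held when the model also took in the bacterial hybridization controls. Acvr1b was then higher by 0.95 ± 0.80 (limma adjusted p = 0.57) and Smad4 lower by 0.72 ± 0.28 (adjusted p = 0.168). Both calls held with 18S taken in instead. The Acvr1b call with both tocopherols was lost with no brightness limit (limma adjusted p = 0.0619). It was also lost without old controls 1 and 4 (adjusted p = 0.0778) and without some single animals. No member passed the test between old and young controls, or between the supplemented groups. In tissue RNA, fewer cells of a type and less RNA per cell cannot be told apart.

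Acvr1b is the member that passed the test in both supplement comparisons, and its promoter is shown for that reason. The gene lies on the forward strand of chromosome 15, and the sequence covers the 250 bases before its start in RefSeq (build GRCm38.p6, chr15:101173822-101174071), written 5′ to 3′ with each GC box core (GGGCGG, or CCGCCC where the match is on the other strand) in capitals.
Acvr1b: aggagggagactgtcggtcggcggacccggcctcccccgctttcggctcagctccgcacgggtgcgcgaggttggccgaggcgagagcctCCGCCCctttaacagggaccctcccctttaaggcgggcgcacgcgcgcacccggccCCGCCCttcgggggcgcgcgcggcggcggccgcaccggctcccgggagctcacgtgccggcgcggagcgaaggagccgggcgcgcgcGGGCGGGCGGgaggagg
The window is 78.8% G and C and holds 4 matches to GGGCGG, which begin 160, 104, 17 and 13 bases before the start, the last pair overlapping. Of 32851 promoters of the same length, 32.7% held at least 1 such match. The Smad binding element in its short form, CAGAC or GTCTG on the other strand, was not found in the Acvr1b window, and 42.2% of all promoters held it. Among the other members with a listed promoter, Tgfb1 had 5 GGGCGG matches and Smad3 had 2, while Tgfb2 had 2 CAGAC matches and Tgfbr2 had 1. The Tgfb2 window (chr1:186705990-186706239, reverse strand) lies inside the gene, which spans 186622787 to 186709697. It therefore does not adjoin the outer start of that gene. Tgfbr1 is listed with 2 starts, of which the upstream one had 2 GGGCGG matches and the other had 1 CAGAC match. These matches describe letters only.

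Among the ligands, Tgfb3 (102751_at) was the one with a tested probe set. Its intensity was 1886.3, 2082.4, 1719.4, 1681.4 and 2422.4 in young controls 1 to 5, and 1424.2, 1836.3, 1643.6, 1949.7 and 1891.7 in old controls 1 to 5. It was 1657.4, 1326.3, 1235.0, 1476.3 and 2861.1 with alpha-tocopherol and 1794.1, 2030.7, 1758.9, 2310.6 and 1499.8 with both tocopherols. The groups overlapped throughout, and the single highest value belonged to alpha-tocopherol animal 5, the other 4 of that group lying at or below 1657.4. No difference passed the test (limma with Benjamini-Hochberg adjustment over 7453 probe sets). The log2 differences were -0.15 ± 0.18 (SE; adjusted p = 0.733) for old against young, -0.09 ± 0.18 (adjusted p = 0.758) for alpha-tocopherol and 0.09 ± 0.18 (adjusted p = 0.796) for both tocopherols against old controls. For age, the 95% interval ran from -0.52 to 0.21 on the log2 scale.

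Tgfb1, the ligand most studied in cardiac fibrosis, varied more between animals than between groups. Young controls 1 to 5 had intensities of 433.1, 652.8, 1330.6, 97.1 and 105.6, and old controls 1 to 5 had 767.2, 612.0, 2400.8, 179.6 and 175.2. In both control groups animals 1, 2 and 3 were above animals 4 and 5, with animal 3 highest. The alpha-tocopherol animals had 206.3, 160.8, 189.0, 486.5 and 274.5, and those fed both tocopherols had 204.3, 170.7, 94.7, 174.0 and 451.7. All 10 supplemented animals therefore lay below old controls 1 to 3 and around old controls 4 and 5. The 18S level divided the controls in the same way: it was 10.68 to 10.77 (log2) in young controls 1 to 3 and 10.13 to 10.43 in young controls 4 and 5, and 10.89 to 11.23 in old controls 1 to 3 and 10.16 to 10.25 in old controls 4 and 5. The correlation of Tgfb1 with 18S was 0.0488 over the 20 arrays and 0.525 within groups; the alpha-tocopherol arrays had the highest 18S levels (12.21 to 12.74) and low Tgfb1. The part of 18S in the Tgfb1 values was not tested. Group means were 8.70 ± 1.37, 9.22 ± 1.42, 8.25 ± 0.52 and 7.996 ± 0.63 (log2, SD, n = 5 each) in young controls, old controls, alpha-tocopherol and both tocopherols. With no brightness filter the limma adjusted p was 0.827 (age), 0.295 (alpha-tocopherol) and 0.286 (both tocopherols), so none of these differences passed.

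Tgfb2 is the ligand that also acts in heart valve development. Its intensity was 146.9 to 293.1 in young controls (median 255.5) and 148.6 to 272.8 in old controls (median 257.3). With alpha-tocopherol the values were 132.9, 74.1, 276.8, 617.5 and 552.5, and with both tocopherols 379.3, 81.7, 333.3, 595.5 and 330.7. The supplemented groups thus spread both below and above the old controls: 3 alpha-tocopherol animals were above every old control and 2 below, and 4 animals fed both tocopherols were above and 1 below. The SD was 1.03 with alpha-tocopherol and 0.82 with both tocopherols against 0.28 in old controls (log2); the difference in spread was not tested. Group means were close, from 8.15 in old controls to 8.49 with both tocopherols. The dim second probe set for Tgfb3 (161382_at) ranged from 36.0 to 259.2 with all groups overlapping. Its correlation with the bright Tgfb3 probe set was 0.0531 over the 20 arrays.

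**Figure D1:**
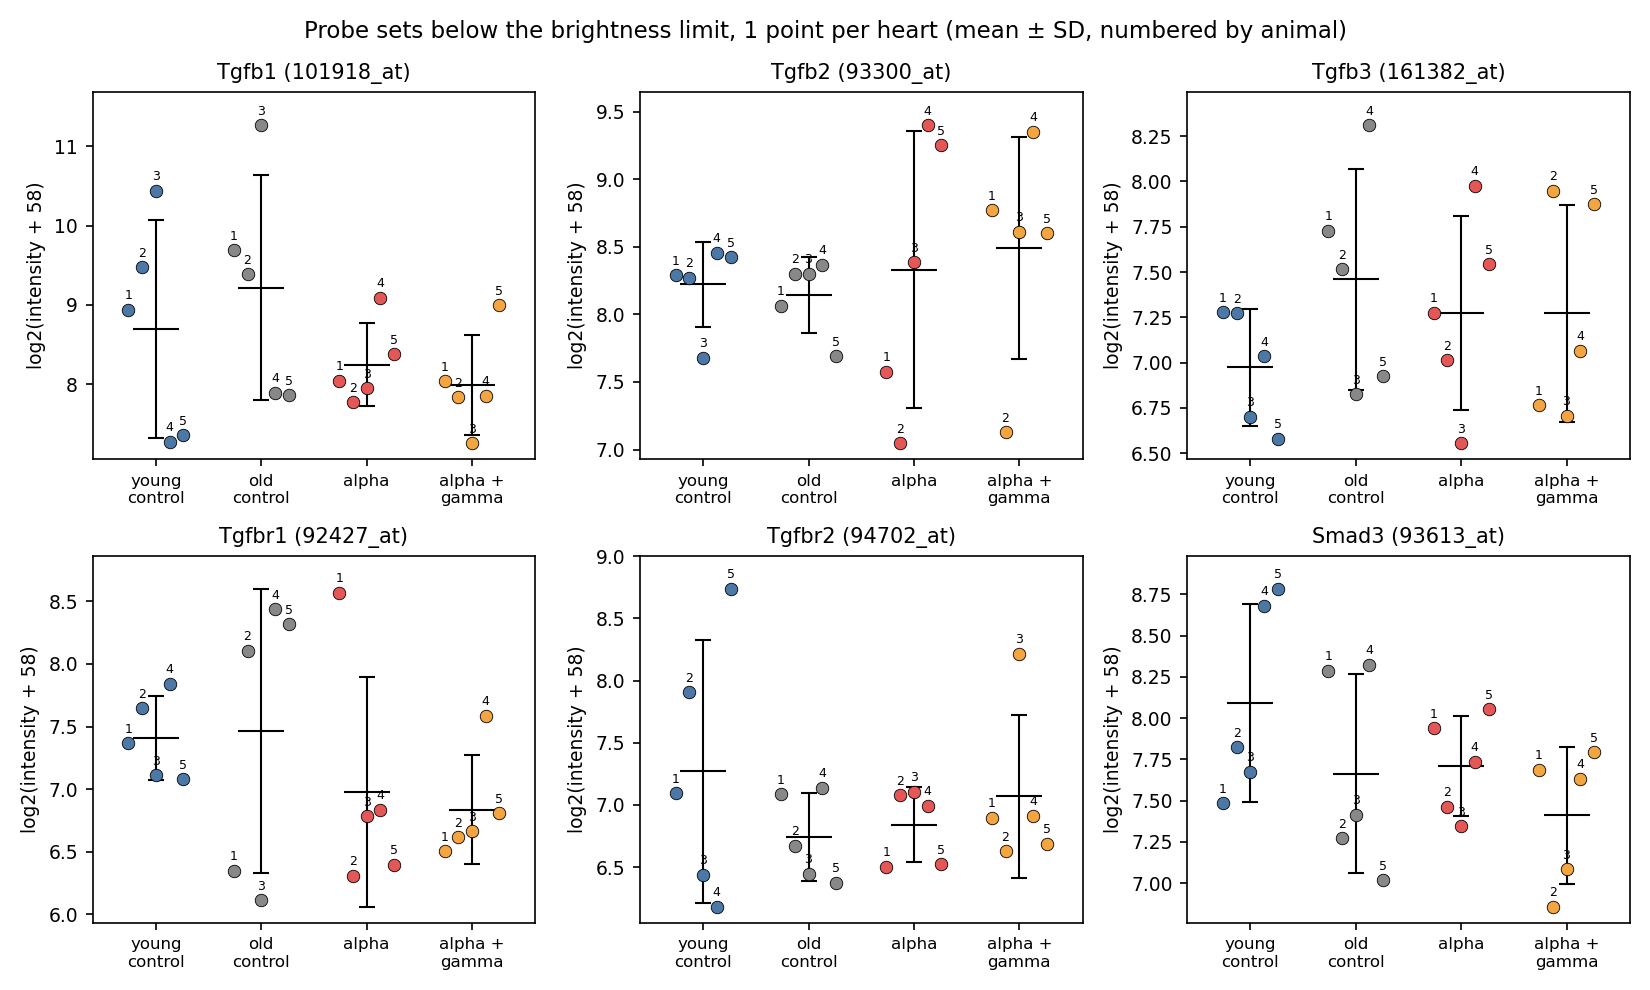
Log2(intensity + 58) of the 6 member probe sets below the brightness limit in each of the 4 groups, 1 point per heart numbered by animal, with the mean and SD (n = 5). Every panel shows overlapping groups; in the Tgfb1 panel animals 1, 2 and 3 of both control groups lie above animals 4 and 5, and in the Tgfb2 panel the supplemented groups spread wider than the controls.

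Of the receptors, Acvr1b, the type I receptor for activins and related ligands, was the one bright enough to test. Its intensity was 118.6, 197.5, 154.0, 435.0 and 117.0 in old controls 1 to 5, against 1304.1, 593.2, 638.4, 730.1 and 906.0 in alpha-tocopherol animals 1 to 5. Every alpha-tocopherol animal was above every old control. The difference was 1.83 ± 0.47 (log2, SE; 3.56-fold on the log2(intensity + 58) scale, 95% interval 0.86 to 2.80 log2; limma adjusted p = 0.0077). The animals fed both tocopherols had 261.8, 1083.1, 766.3, 1467.8 and 395.9, so that 3 of 5 were above every old control and animals 1 and 5 fell within the old range. Their difference from old controls was 1.60 ± 0.47 (log2; 3.02-fold, interval 0.63 to 2.56, limma adjusted p = 0.0426). Acvr1b lies near the brightness limit, with a mean level at the 45.5th percentile. It passed the limit of 8.716 on its mean over all arrays together (9.047, log2). The old control mean of 7.92 lay below the limit, and their median intensity was 154.0, where the limit is about 362. Means in young controls (9.01), alpha-tocopherol (9.75) and both tocopherols (9.51) lay above it. Being tested thus rested on the high levels of the supplemented groups, and both differences are measured from a dim baseline. With no brightness filter the limma adjusted p was 0.0114 for alpha-tocopherol and 0.0619 for both tocopherols, so the second did not pass.

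Young controls spanned nearly the whole range of Acvr1b, with intensities of 115.6, 358.3, 370.3, 933.9 and 1129.7 in animals 1 to 5. The difference of old from young controls was -1.09 ± 0.47 on the log2 scale (interval -2.06 to -0.12), which did not pass the test (limma adjusted p = 0.206). In order, the group means were 7.92 ± 0.62 in old controls, 9.01 ± 1.12 in young controls, 9.51 ± 0.93 with both tocopherols and 9.75 ± 0.43 with alpha-tocopherol (log2, SD, n = 5 each). The last 3 means lay closer to each other than the SD of the young controls. Between the supplements the difference was -0.23 ± 0.47 for both tocopherols against alpha-tocopherol (log2; interval -1.20 to 0.73, limma adjusted p = 0.862). That interval is wide and holds changes of either sign.

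The TGF-beta receptors Tgfbr1 and Tgfbr2 were among the dimmest member probe sets. Tgfbr1 intensities were 77.1 to 171.3 in young controls, 11.2 to 288.3 in old controls, 21.3 to 321.7 with alpha-tocopherol and 32.8 to 134.2 with both tocopherols. Old controls divided into 23.5 and 11.2 in animals 1 and 3 and 217.2 to 288.3 in the others. Tgfbr2 was 14.5 to 368.7 in young controls, 25.0 to 82.8 in old controls, 32.7 to 79.7 with alpha-tocopherol and 40.8 to 239.3 with both tocopherols. All groups overlapped for both genes, and no difference passed with the brightness filter left out, where the smallest adjusted p for either gene was 0.494.

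Smad4, the common partner through which both TGF-beta and bone morphogenetic protein (BMP) Smads act, was highest in old controls. Its intensity was 1627.9, 1766.4, 1901.7, 1830.7 and 1441.7 in old controls 1 to 5 and 772.5, 778.6, 531.7, 968.3 and 1171.5 in alpha-tocopherol animals 1 to 5. No alpha-tocopherol animal reached the lowest old control. Smad4 fell by 1.01 ± 0.16 on the log2 scale with alpha-tocopherol (SE; 0.497-fold, interval -1.35 to -0.67; limma adjusted p = 0.000188). The animals fed both tocopherols had 1038.5, 1230.7, 1137.0, 1225.2 and 1190.7, a narrow range that also lay below every old control. Their difference was -0.53 ± 0.16 (log2; 0.692-fold, interval -0.87 to -0.20) and missed the threshold (limma adjusted p = 0.0512).

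With age, Smad4 was 1222.8, 1247.7, 1626.6, 1527.1 and 1077.8 in young controls, and 4 of the 5 old controls were above every young control. The difference of 0.35 ± 0.16 (log2; interval 0.01 to 0.69) did not pass (limma adjusted p = 0.249). The group means were 9.78 ± 0.40 with alpha-tocopherol, 10.25 ± 0.097 with both tocopherols, 10.43 ± 0.23 in young controls and 10.79 ± 0.15 in old controls (log2, SD, n = 5 each). The group fed both tocopherols lay between the other old groups: its difference from alpha-tocopherol was 0.48 ± 0.16 (log2; interval 0.14 to 0.81), with 3 of 5 animals above every alpha-tocopherol animal, and did not pass either (limma adjusted p = 0.156).

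**Figure D2:**
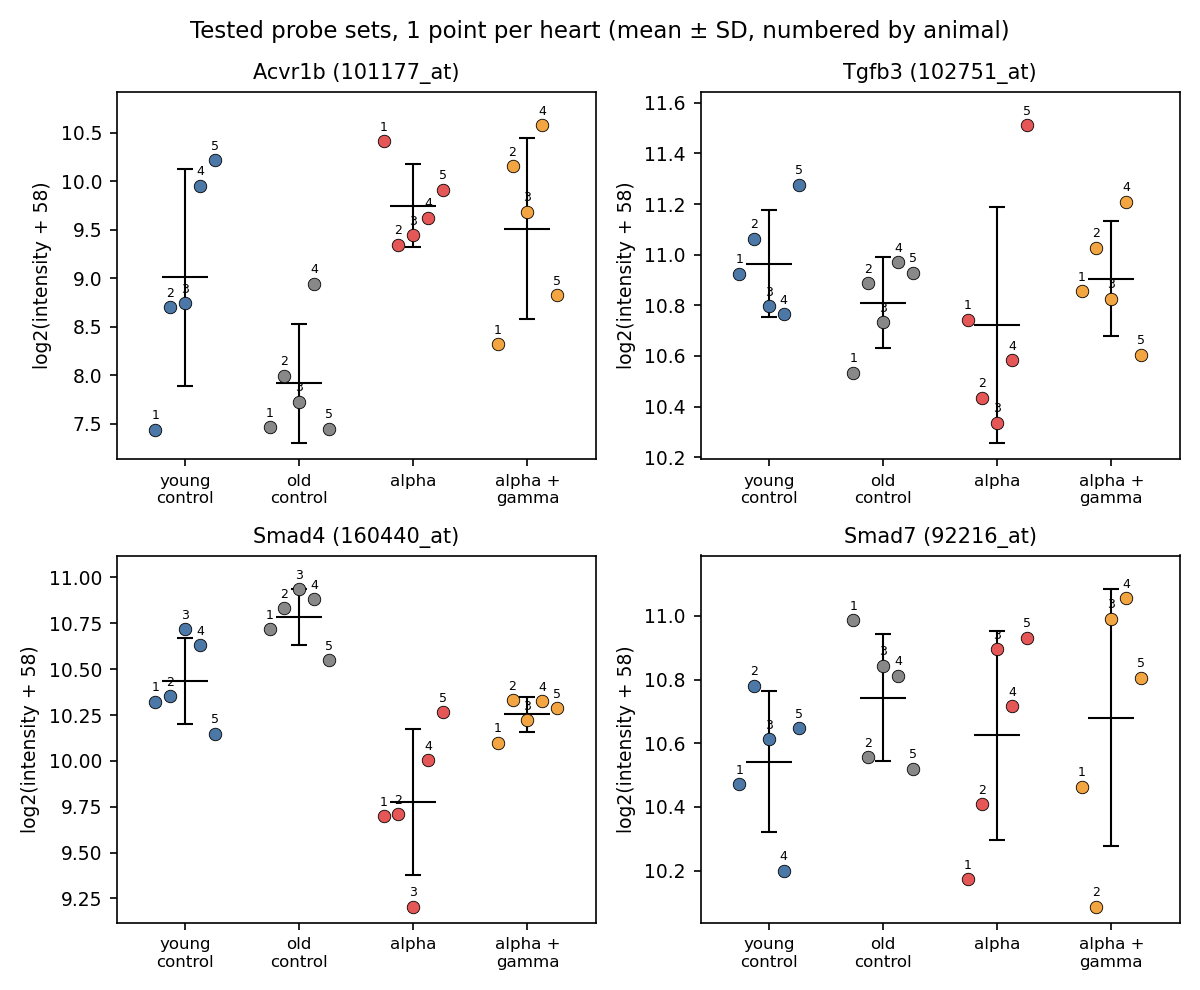
Log2(intensity + 58) of the 4 tested member probe sets in young controls, old controls, and old mice fed alpha-tocopherol or both tocopherols, 1 point per heart numbered by animal, with the mean and SD (n = 5). For Acvr1b all alpha-tocopherol hearts lie above all old controls, for Smad4 all supplemented hearts lie below all old controls, and for Tgfb3 and Smad7 the groups overlap.

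Smad7, the inhibitory Smad, did not differ detectably in any comparison. Its intensity was 1118.4 to 1702.0 in young controls (median 1506.7), 1410.5 to 1972.0 in old controls (median 1739.3), 1095.3 to 1895.1 with alpha-tocopherol (median 1623.6) and 1029.1 to 2071.4 with both tocopherols (median 1732.4). The groups overlapped, and the supplemented groups reached both lower and, for both tocopherols, higher than the old controls. The log2 differences were 0.20 ± 0.18 for age (adjusted p = 0.64), -0.12 ± 0.18 for alpha-tocopherol (adjusted p = 0.673) and -0.06 ± 0.18 for both tocopherols (adjusted p = 0.873; limma). The interval for alpha-tocopherol was -0.50 to 0.26 on the log2 scale.

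Smad3, the receptor-activated Smad that mediates much of the fibrotic response, was dim. Its intensity was 121.3, 168.7, 146.6, 352.2 and 382.6 in young controls and 254.7, 96.5, 112.8, 262.3 and 71.7 in old controls. Young controls 4 and 5, with the highest Acvr1b among the young controls but not among all animals, also had the highest Smad3. It was 104.5 to 208.1 with alpha-tocopherol and 57.9 to 163.8 with both tocopherols, and all groups overlapped.

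Read against the whole array, 0 of the 4 tested members were called for age, where limma called 4.94% of all 7453 probe sets (2.74% higher and 2.2% lower); Acvr1b and Smad4 had unadjusted p-values of 0.0287 and 0.0415 there. For alpha-tocopherol 2 of 4 were called, against 21.7% of all probe sets (8.94% higher and 12.8% lower). For both tocopherols 1 of 4 was called, against 6.43% (2.67% higher and 3.76% lower). Between the supplements 0 of 4 were called, against 0.564% (0.309% higher and 0.255% lower), with Smad4 at an unadjusted p of 0.00736. With all 10 probe sets fitted and no filter, 0, 2, 0 and 0 were called in the same order. The median log2 change of the 4 tested members was 0.02, -0.10, 0.02 and 0.12 in these comparisons, beside 0.01, -0.02, -0.01 and 0.01 over all tested probe sets. Separation of every animal of the groups, as for Acvr1b and Smad4 with alpha-tocopherol, occurred for 16.2% of all tested probe sets in that comparison and for 8.32% with both tocopherols. Since more than 1 in 5 probe sets passed for alpha-tocopherol, a count of 2 in 4 is not particular to these genes.

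**Figure D3:**
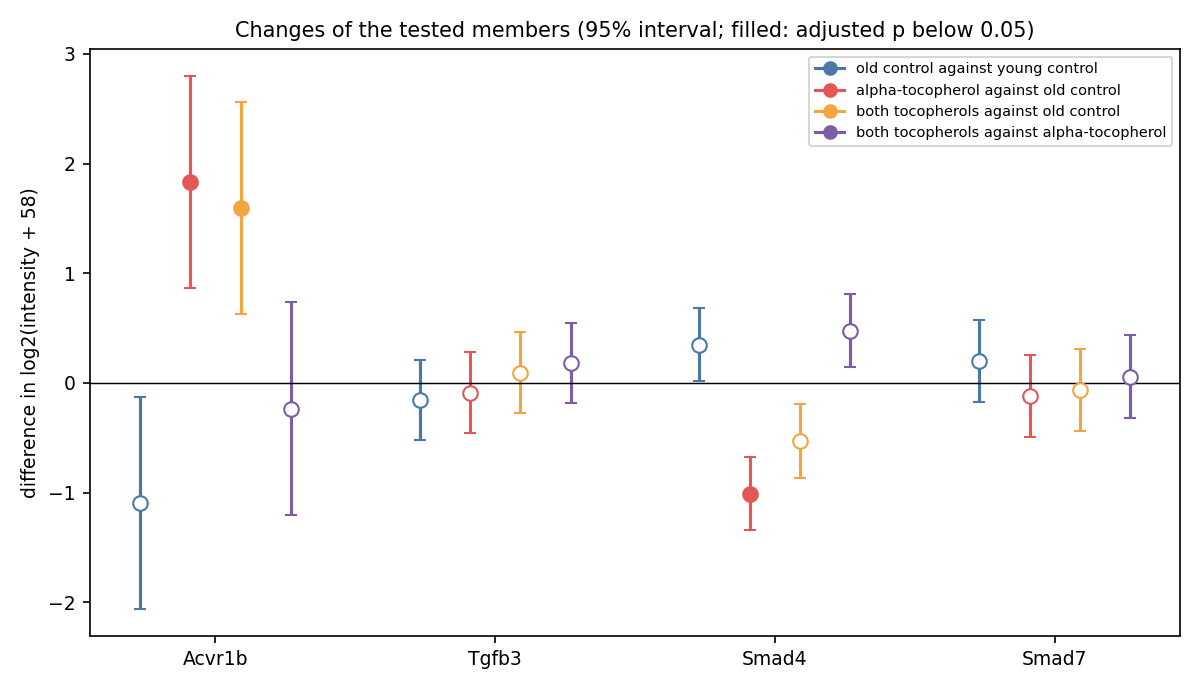
Difference in log2(intensity + 58) of the 4 tested members in each of the 4 comparisons, with the 95% interval; filled points have a limma adjusted p below 0.05. Filled points are Acvr1b in both supplement comparisons and Smad4 with alpha-tocopherol, and every Tgfb3 and Smad7 interval includes 0.

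The levels of Acvr1b and Smad4 were correlated with the hybridization controls over all 20 arrays, and more weakly within groups. The control level was 12.55 to 12.92 (log2) in old controls, 13.32 to 13.78 with alpha-tocopherol and 12.39 to 13.32 with both tocopherols. Over the 20 arrays its correlation was 0.569 with Acvr1b and -0.78 with Smad4, and within groups 0.297 and -0.321. With the hybridization level as a covariate, the alpha-tocopherol difference was 0.95 ± 0.80 for Acvr1b (log2; limma adjusted p = 0.57) and -0.72 ± 0.28 for Smad4 (adjusted p = 0.168), so that neither passed. With 18S as the covariate both passed, at 3.07 ± 0.66 (adjusted p = 0.0214) and -1.14 ± 0.26 (adjusted p = 0.0257). The correlation with 18S was 0.198 over all arrays and -0.5 within groups for Acvr1b, and -0.588 and 0.171 for Smad4. The 18S level was 10.16 to 11.23 in old controls and 12.21 to 12.74 with alpha-tocopherol. Neither measure overlaps between these groups, so the diet and either array measure cannot be told apart there.

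The call of Acvr1b with both tocopherols lay close to the threshold. It was lost without any 1 of old controls 1, 2, 3 or 5 or of animals 2, 3 or 4 fed both tocopherols, where the difference was 1.33 to 1.62 (log2) and the limma adjusted p 0.0676 to 0.109. It was also lost with the hybridization covariate (1.30 ± 0.51, adjusted p = 0.158). Without old controls 1 and 4, the animals labelled without F1, the difference was 1.79 ± 0.53 (adjusted p = 0.0778).

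**Figure D4:**
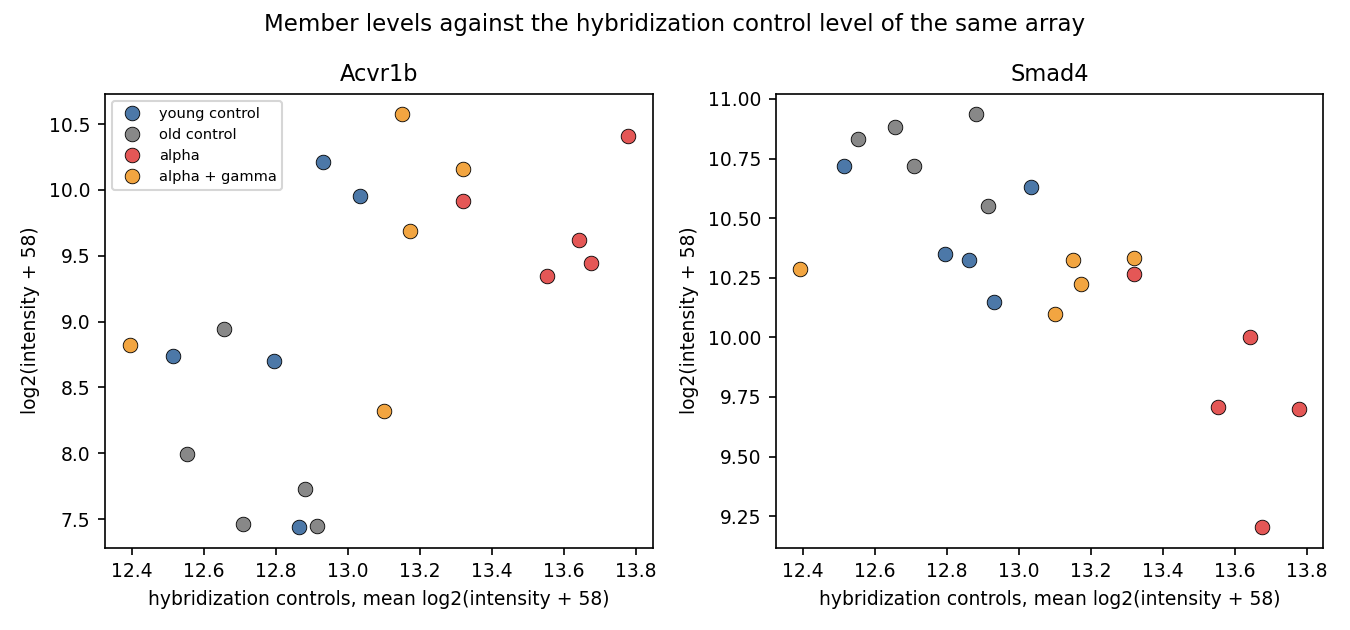
Log2(intensity + 58) of Acvr1b and Smad4 on each of the 20 arrays against the mean log2 level of the 9 hybridization control probe sets on the same array, coloured by group. The alpha-tocopherol arrays lie to the right of all old controls, with Acvr1b high and Smad4 low.

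Beyond these genes, 133 other genes of the pathway were listed by role, of which 106 were on the array and 73 were tested. For age, 2 of 73 rose and 1 fell (4.11%; median log2 change 0.05). For alpha-tocopherol 7 rose and 13 fell (27.4%; median -0.07), and for both tocopherols 3 rose and 9 fell (16.4%; median -0.09). Between the supplements 1 differed (1.37%; median -0.02). The shares called over all probe sets, given above, were 4.94%, 21.7%, 6.43% and 0.564%. Those shares count every tested probe set, whereas each pathway gene counts once, at its brightest tested probe set. The lists were also chosen with earlier results of these data known, so the shares set beside each other are no test of the pathway.

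Among ligands, 0 of the 4 tested activin and related ligands were called in any comparison; among the BMPs 1 of 5 rose with each supplement. This was Bmp6, at 0.47 ± 0.13 with alpha-tocopherol (log2, limma adjusted p = 0.0121) and 0.44 ± 0.13 with both (adjusted p = 0.0426). A second Bmp6 probe set had the opposite sign with alpha-tocopherol. Both Bmp6 calls were lost with either covariate and without old controls 1 and 4 (limma adjusted p 0.0576 to 0.667). Of 7 other receptors and co-receptors, 2 rose with alpha-tocopherol and 0 with both tocopherols. They were Tgfbr3, or betaglycan, which presents TGF-beta to Tgfbr2 (0.65 ± 0.14, adjusted p = 0.00229), and Acvrl1, a type I receptor of endothelial cells (0.52 ± 0.12, adjusted p = 0.00484). Tgfbr3 lay between 671.1 and 1060.0 in old controls and between 1184.3 and 1665.4 with alpha-tocopherol, with no overlap.

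Of 14 other Smads and Smad partners, 6 fell and 1 rose with alpha-tocopherol, and 3 fell with both tocopherols. Smad2, which carries the same signal as Smad3, ranged from 1253.4 to 1776.8 in old controls, 646.8 to 1005.8 with alpha-tocopherol and 710.3 to 1127.3 with both tocopherols. Neither supplemented group overlapped the old controls, and Smad2 fell by 0.76 ± 0.16 (log2, limma adjusted p = 0.00199) and by 0.63 ± 0.16 (adjusted p = 0.0215). With both tocopherols the Smad2 call was lost with 18S (limma adjusted p = 0.0602) and without old controls 1 and 4 (adjusted p = 0.1). Fkbp1a, which binds type I receptors and holds them inactive, fell by 0.58 ± 0.10 (adjusted p = 0.000337) and by 0.40 ± 0.10 (adjusted p = 0.0194). Tab2, an adaptor of the kinase Map3k7 in the Smad-independent branch, fell by 0.70 ± 0.12 (adjusted p = 0.000451) and by 0.44 ± 0.12 (adjusted p = 0.0373). The Tab2 call with both tocopherols was lost with either covariate (limma adjusted p = 0.058 and 0.0909). It was also lost without old controls 1 and 4 (0.134) and without young control 3 and old control 3 (0.0521). Strap, a receptor-binding protein that acts with Smad7, fell by 1.10 ± 0.15 with alpha-tocopherol (adjusted p = 4.74e-05). It was the 1 gene called between the supplements, being higher by 0.73 ± 0.15 with both tocopherols (adjusted p = 0.041). Strap intensities were 1037.7 to 1460.2 with alpha-tocopherol and 1466.3 to 2653.3 with both tocopherols. Tgif2, a Smad corepressor, was the 1 partner that rose with alpha-tocopherol (1.07 ± 0.23 log2, limma adjusted p = 0.0026), and it fell with age by 0.84 ± 0.23 (adjusted p = 0.0383). The age call of Tgif2 was lost with the hybridization covariate (-0.82, adjusted p = 0.0531), without old controls 1 and 4 (-0.58, adjusted p = 0.26) and without young control 3 and old control 3 (-0.86, adjusted p = 0.071).

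Of 16 genes for latency, activation and extracellular inhibition, Htra1 was called in 3 comparisons. Htra1 is a secreted protease that can cut TGF-beta family proteins and limit their signal. It ranged from 2433.8 to 4228.5 in young controls, 4398.3 to 6431.6 in old controls, 2029.2 to 3755.5 with alpha-tocopherol and 2468.5 to 3900.0 with both tocopherols. Old controls were above every animal of the other groups. Htra1 rose with age by 0.80 ± 0.17 (log2; limma adjusted p = 0.00477), and fell by 0.83 ± 0.17 with alpha-tocopherol (adjusted p = 0.00122) and by 0.79 ± 0.17 with both tocopherols (adjusted p = 0.00688). All 3 comparisons share the old controls, so these are not independent. Nbl1, a BMP antagonist, fell by 1.04 ± 0.33 with alpha-tocopherol (adjusted p = 0.0273) and fell by 1.10 ± 0.33 with both tocopherols (adjusted p = 0.046), and Ltbp3, which anchors latent TGF-beta, rose with alpha-tocopherol by 0.59 ± 0.20 (adjusted p = 0.0423). The Ltbp3 difference was 0.085 ± 0.29 with the 18S covariate (adjusted p = 0.913), 0.43 with the hybridization covariate (adjusted p = 0.572) and 0.58 without old controls 1 and 4 (adjusted p = 0.12).

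Of 27 genes known to respond to TGF-beta, 2 rose and 5 fell with alpha-tocopherol and 2 rose and 4 fell with both tocopherols. Loxl1, an enzyme that crosslinks elastin, was 834.7 to 1334.2 in old controls, 1972.5 to 3244.1 with alpha-tocopherol and 1869.3 to 2293.5 with both tocopherols. It rose by 1.34 ± 0.15 (log2; limma adjusted p = 4.23e-06) and by 0.90 ± 0.15 (adjusted p = 0.00108). Postn, a matrix protein made by activated fibroblasts, fell by 1.49 ± 0.27 with alpha-tocopherol (adjusted p = 0.000622), and Tsc22d1, a TGF-beta-stimulated transcription regulator, fell by 1.07 ± 0.18 (adjusted p = 0.000241). The fibrillar collagen gene Col3a1 fell by 1.54 ± 0.26 with both tocopherols (adjusted p = 0.00148), from 2658.7 to 3682.2 in old controls to 734.5 to 1407.6. It also fell with alpha-tocopherol, by 1.39 ± 0.26 (limma adjusted p = 0.000754). Col5a2 fell by 1.17 ± 0.23 with alpha-tocopherol (limma adjusted p = 0.00094) and by 1.02 ± 0.23 with both tocopherols (adjusted p = 0.0103). Col1a2 rose by 0.71 ± 0.11 and by 0.50 ± 0.11 (adjusted p = 0.000179 and 0.0123), while its second probe set had the opposite sign in both comparisons. For age, Tgfb1i1, a focal adhesion protein induced by TGF-beta, rose by 0.46 ± 0.13 (adjusted p = 0.0476). The Tgfb1i1 call was lost with the hybridization covariate (0.46, adjusted p = 0.0615), with 18S (0.44, adjusted p = 0.0574), without old controls 1 and 4 (0.39, adjusted p = 0.256) and without young control 3 and old control 3 (0.39, adjusted p = 0.162).

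Markers of heart cell types, T cells and liver were examined in the same comparisons. Beside their counts, the shares called over all tested probe sets were 21.7% for alpha-tocopherol, 6.43% for both tocopherols and 4.94% for age. The endothelial count with alpha-tocopherol, 2 of 10, is near the 21.7%. As with the pathway genes, each marker counts once, at its brightest tested probe set. Of 12 tested fibroblast markers, 8 fell and 1 rose with alpha-tocopherol (median -0.59 log2), and 4 fell and 1 rose with both tocopherols (median -0.30). The summed fibroblast intensity, in which the brightest probe sets weigh most, ranged from 92082 to 133020 with alpha-tocopherol. It was 86494 to 126820 with both tocopherols and 119370 to 132120 in old controls. With alpha-tocopherol 4 of 8 macrophage, 2 of 10 endothelial, 2 of 8 smooth muscle and 4 of 6 liver markers fell, 5 of 11 cardiomyocyte markers and 1 smooth muscle marker rose, and the 1 tested T cell marker was not called. Of the markers that fell there, the fibroblast genes Pdgfra and Mfap5 and the macrophage gene C1qb each had another tested probe set of the opposite sign. With both tocopherols 1 macrophage, 3 endothelial, 1 smooth muscle and 3 liver markers fell, and 0 cardiomyocyte markers were called. For age, 1 fibroblast and 2 endothelial markers rose and 1 smooth muscle marker fell. Col1a2, Col3a1 and Postn stand in the fibroblast list as well as among the responsive genes. The part of cell makeup in the results for Acvr1b, Smad4 and the pathway genes was not tested.

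Fewer pathway genes were called with the array measures as covariates. With the hybridization covariate 2 pathway genes, Strap and Loxl1, were called for alpha-tocopherol, and 5 (Smad2, Htra1, Col1a2, Col3a1 and Loxl1) for both tocopherols; with 18S as covariate 3 (Fkbp1a, Col5a2 and Loxl1) were called for alpha-tocopherol. For alpha-tocopherol the hybridization covariate widened the errors. Some differences were about as large or larger: Postn was -1.505 ± 0.49, Fkbp1a -0.56 ± 0.18, Smad2 -0.85 ± 0.29, Tgfbr3 0.67 ± 0.25, Tsc22d1 -1.18 ± 0.32 and Htra1 -1.08 ± 0.29 (log2). The difference was more than 1.5 times smaller for Bmp6 (0.21), Snx6 (-0.34 from -0.61), Map3k7 (-0.44 from -0.91) and Col5a2 (-0.78 from -1.17), and with 18S the Nbl1 difference was -1.78. With 18S, Smad2 (-0.53) and Strap (-0.80) were smaller. With the hybridization covariate Nbl1 (-0.73 from -1.04), Acta2 (-0.45 from -0.65), Ltbp3 (0.43 from 0.59) and Loxl1 (0.997 from 1.34) became smaller by less than 1.5 times. Whether calls were lost through the array measure or through the larger errors was not tested. For both tocopherols, 7 were called without old control 1 or without old control 5, and 4 (Htra1, Col1a2, Col3a1 and Loxl1) without old controls 1 and 4. For age, 1 was called without any 1 of young controls 1, 2 and 4 or old controls 1 and 4, and the Strap call between the supplements was lost without any 1 of alpha-tocopherol animals 1, 3 and 5, of animals 3, 4 and 5 fed both tocopherols, or of old controls 1 and 4. The Strap difference between the supplements was 0.96 with the hybridization covariate (limma adjusted p = 0.147) and 0.52 with 18S (adjusted p = 0.523), and neither passed.

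**Figure D5:**
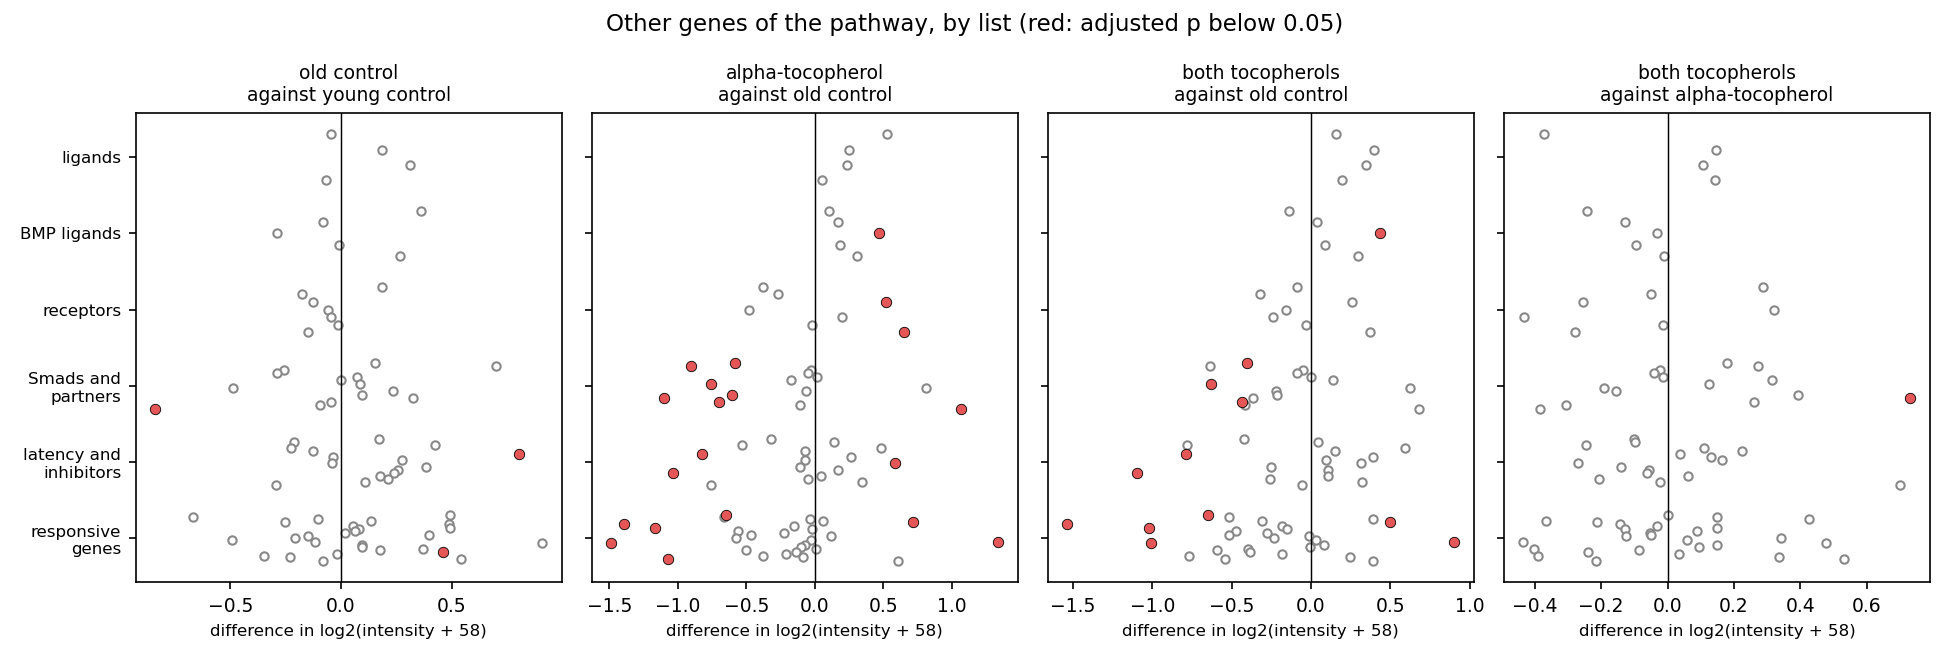
Difference in log2(intensity + 58) of 73 other pathway genes, 1 point per gene, in 6 lists by role and in each of the 4 comparisons; red points have a limma adjusted p below 0.05. Red points of the Smad and partner list lie mainly below 0 in the supplement comparisons, and the responsive genes lie on both sides of 0.

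The tested probe sets most like Acvr1b over the 20 arrays were Fzd7 (Pearson r = 0.803), Aloxe3 (0.744) and Tcea2 (0.741), with correlations within groups of 0.627, 0.598 and 0.541. Those most like Smad4 were Tnfaip8 (0.946), Ubl3 (0.922) and Hnrnpdl (0.92), with 0.786, 0.709 and 0.674 within groups. These are the highest of 6696 candidates and share the arrays and the group differences. Among the members themselves the correlation ranged from -0.583 for Acvr1b with Tgfb1 to 0.606 for Tgfb2 with Smad7. Acvr1b and Smad4 correlated at -0.467 over all arrays and at 0.206 within groups.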

How the data were processed

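RNA of 20 hearts was measured on oligonucleotide arrays. Per the labels' protocols, polyadenylated RNA was purified from total RNA of frozen tissue and copied into biotin-labelled RNA. The authors deposited a linear intensity per probe set; no source used here names the software. Deposited intensity runs from 0.4 to 275792.6, and every array has a trimmed mean of 1501.01 to 1501.14 (2% left out at each end). No detection calls were used, and the number of arrays limits the precision.

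Values were taken as log2(intensity + 58), 58 being close to the 10th percentile (57.6), which understates the fold changes of dim probe sets. Tests covered 7453 probe sets, after 66 controls and the dimmest 40% of the rest were set aside. The model was limma's (version 3.58.1, R 4.3.3) with 1 mean per group, a variance trend and robust moderation, with two-sided p-values adjusted by Benjamini-Hochberg over all tested probe sets and calls below 0.05. Exact permutation tests served for array measures. Names came from the platform annotation; all 10 member probe sets matched RefSeq GRCm38.p6, which also gave the promoters. Other pathway genes were named from each list and comparison as the up to 4 called genes with the smallest adjusted p, each at its brightest tested probe set. For each called member the 3 most correlated probe sets were named. The members and lists were chosen with earlier results of these data known. The steps were tested on simulated data. Alternatives covered the pseudocount, the filter, the scaling, no trend, array weights, the compared groups alone, a replicate block, 2 covariates and the omission of animals.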

Additional observations from a re-analysis of the deposited data

Results flagged for a closer look

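In 4 of the 40 member probe set and group combinations, 1 animal stood apart from the other 4, its gap to the nearest of them divided by the range of the group being above 0.71. Chance gives about 1 in 20 such groups. All 4 were in probe sets below the brightness limit. Young control 3 was lowest for Tgfb2 (146.9, gap over range 0.765). For Tgfbr1, alpha-tocopherol animal 1 was highest (321.7, 0.767), as was animal 4 of those fed both tocopherols (134.2, 0.718). For Tgfbr2, animal 3 fed both tocopherols was highest (239.3, 0.819).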

How the results depend on the processing

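The count of members called was 0 for age and 0 between the supplements under every alternative. For alpha-tocopherol it was 2, except 1 with the dimmest 60% left out, where Acvr1b was not tested, and 0 with the hybridization control covariate. For both tocopherols it was 1. With the dimmest 60% left out it was also 1, but the member called was Smad4 (adjusted p = 0.04), Acvr1b not being tested. It became 2, Smad4 joining Acvr1b, with a pseudocount of 200, quantile normalization, arrays centred on their median, array weights, or only the groups compared. It became 0 with no brightness filter, with no trend and no robust setting, without old controls 1 and 4, without young control 3 and old control 3, and with the hybridization covariate. Leaving out 1 animal at a time gave 0 to 2. The cause of these differences was not tested. No member's call changed direction. The replicate numbers were not used as pairs in the main model. Same-numbered correlations of deviations were weak, from -0.0818 to 0.101, with 1 of 5 age pairs over 0.1. For age they were all positive (0.041 to 0.101), with a median of 0.0636 against -0.0257 for animals of unlike number. With the replicate block 2 members were called for alpha-tocopherol and 1 for both tocopherols, as without it. Probe sets below the brightness limit gave no tested result in the main model, and none of these members passed with the filter left out.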
